A study of Mus musculus with 30 samples.

Results

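Gene expression in the hippocampus was compared with that in the rest of the brain of 5 B-cell-deficient 3xTgAD mice (3xTgAD-BKO), across all genes and transcripts of a mouse array. All arrays whose genotype label is JHT_3xTgAD were taken, which gave 10 of the 30 arrays of the study and 5 of its 15 mice. Each of the 5 hippocampal arrays was paired with the brain array that carries the same mouse number at the end of its title. The females were mice 6 and 7 and the males were mice 0, 8 and 9, all aged 15 to 20 months and labelled with the strain C57BL/6j. Every 3xTgAD-BKO mouse carries the 3xTgAD alleles, which are transgenes for human APP with the Swedish mutation and for mutant human tau, both driven by a Thy1 expression cassette in neurons, and a further knock-in allele. The JHT allele lacks the joining segments of the immunoglobulin heavy chain gene in every cell, so no mature B cells form, and the loss is therefore not limited to the brain. Both tissues of these mice carry all of these alleles. They were taken after euthanasia with CO2 and perfusion with PBS, and the brain samples hold what was left after the hippocampus had been removed. The 3xTgAD mice with B cells (5 mice) and the WT females (3 mice) were compared with them only in the difference between tissues. The fits of those comparisons also held 2 females labelled JHT, which add only to the estimate of the spread. All 30 arrays entered the normalization and the choice of probes.

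The hippocampus is a folded sheet of forebrain cortex in which the granule cells of the dentate gyrus and the pyramidal cells of the CA fields form a chain of excitatory synapses that serves memory of places and events. These neurons use AMPA, NMDA and kainate receptors for glutamate, and local interneurons inhibit them through GABA receptors. The rest of the brain holds neurons that the hippocampus lacks, such as cerebellar granule and Purkinje cells, medium spiny neurons of the striatum, peptide neurons of the hypothalamus, and the monoamine neurons of midbrain and brainstem, whose axons do reach the hippocampus but whose mRNA mostly stays in their cell bodies.

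Of the 36717 genes and transcripts tested, 2346 were higher in the hippocampus (6.39%) and 2344 were higher in the brain (6.38%) at an adjusted p under 0.05 in the paired limma fit. At least 2-fold were 1041 of those higher in the hippocampus (2.84%) and 1384 of those higher in the brain (3.77%), and at least 4-fold were 146 and 492. The signals are log2 intensities after quantile normalization, and differences are hippocampus minus brain on that scale with the standard error (SE) of the fit, n = 5 mice. With each array scaled to its 75th percentile in place of quantiles, the median of all differences was 0.18 and 62.8% of the calls were higher in the hippocampus, and with quantiles taken within each tissue 31.2% were, so the near-even split holds for the main scaling and not for these 2. The direction of the genes called at least 2-fold was the same in 99.3% to 100% of them under every alternative. Where a gene is higher in 1 tissue, more cells of a type and more RNA per cell cannot be told apart in bulk tissue. The exact sign-flip test over 5 pairs cannot give a two-sided p below 0.0625, so single genes were judged by the fit across all genes. All 5 hippocampi lay above all 5 brains for 8.09% of the features and below them for 8.43%.

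**Figure D1:**
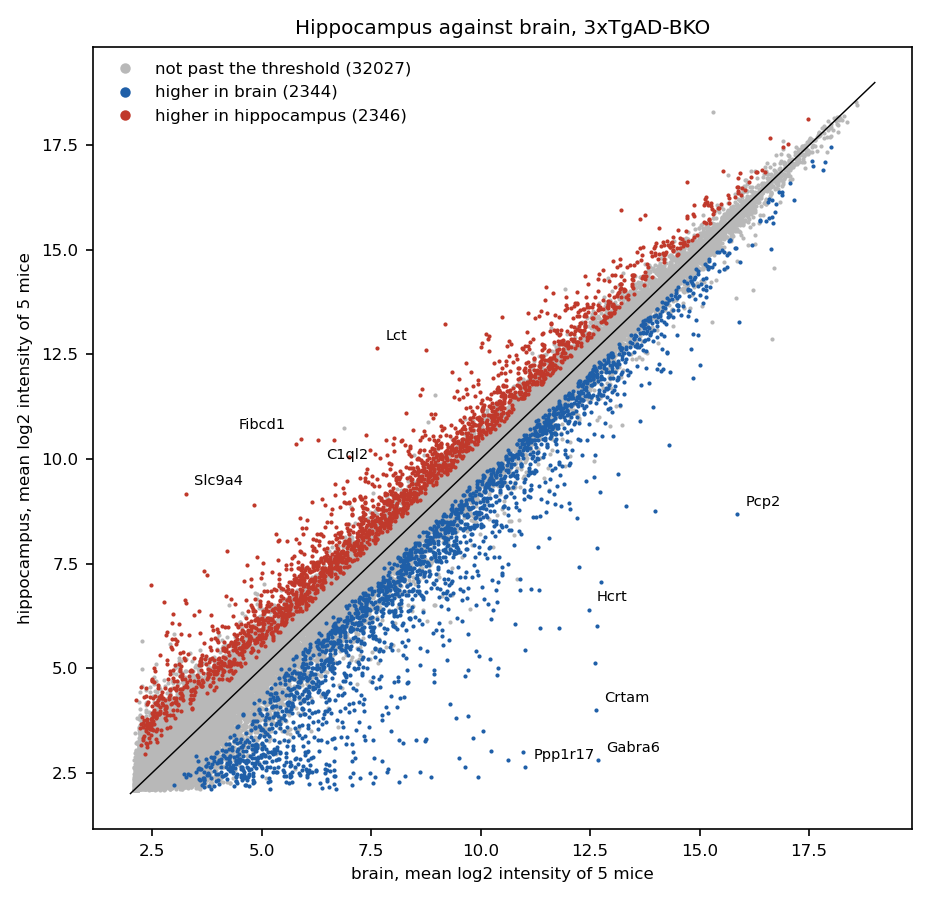
Mean log2 intensity of each gene or transcript in 5 hippocampi (vertical axis) against that in 5 brains (horizontal axis) of the 3xTgAD-BKO mice, with the line of equal levels. Red points (2346) were higher in the hippocampus and blue points (2344) higher in the brain at an adjusted p under 0.05. The blue points reach farther from the line than the red ones, with Gabra6 and Crtam near the bottom right.

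Some features of the arrays bear on single values. The hippocampal array of mouse 0 has a patch of the surface with low spots: 466 of its spots were over 8-fold low, against 7 to 74 on other hippocampal arrays, and 432 were marked as outliers by the scanner software, against 112 to 120 on the other 4. Setting the patch missing left 4390 genes without a value for that hippocampus and gave 5314 calls. Of the 164 genes looked up singly for the text, 17 lost that value, and not all of them are marked below. The hippocampal arrays of mice 0, 6 and 7 lay on slide 1 and those of mice 8 and 9 on slide 2, while the brain arrays lay on slides 2 (mouse 0), 3 (mice 6, 7 and 8) and 4 (mouse 9). On the one slide with both tissues, 2407 of 2424 genes called at least 2-fold had the direction of the full comparison (99.3%), and a fit with slide but not mouse as a term called 1327 genes. Both rest on that slide alone, which holds the hippocampi of mice 8 and 9 and the brain of mouse 0 and so no pair from the same mouse. Where a gene was well above background on only some arrays of a tissue, its difference is fitted with the remaining arrays at background readings and is no measured fold. The 75th percentile of the raw intensity was 547 to 824 in the hippocampi and 1077 to 1636 in the brains. Xist was 8.99 to 10.21 in both tissues of the females and 2.22 to 2.28 in the males, and Ddx3y was 2.38 to 2.45 in the females and 11.05 to 11.48 in the males, as the sex labels have it.

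The sequences around the starts of 4 genes are printed here because results described next turn on these genes. They are Prox1 and Lct, higher in the hippocampus, and Pcp2 and Hcrt, higher in the brain. Each sequence runs from 250 bases before to 50 bases after a start annotated by RefSeq on GRCm38.p6, on the minus strand, at chr1:190170778-190171077 for Prox1, chr1:128328269-128328568 for Lct, chr8:3625498-3625797 for Pcp2 and chr11:100762882-100763181 for Hcrt, and where RefSeq lists several starts the first one in its table was taken. Capitals mark CAGATG, an E-box that neural bHLH factors read, and TATAAA, the core of a TATA box, searched on both strands (CATCTG and TTTATA are the same letters on the other strand).
Prox1: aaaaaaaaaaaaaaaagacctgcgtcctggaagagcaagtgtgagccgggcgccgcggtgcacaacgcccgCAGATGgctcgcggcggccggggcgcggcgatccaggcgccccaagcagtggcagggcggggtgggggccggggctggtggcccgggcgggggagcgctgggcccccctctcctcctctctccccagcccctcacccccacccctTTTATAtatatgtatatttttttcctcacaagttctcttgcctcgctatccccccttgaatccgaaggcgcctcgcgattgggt
Lct: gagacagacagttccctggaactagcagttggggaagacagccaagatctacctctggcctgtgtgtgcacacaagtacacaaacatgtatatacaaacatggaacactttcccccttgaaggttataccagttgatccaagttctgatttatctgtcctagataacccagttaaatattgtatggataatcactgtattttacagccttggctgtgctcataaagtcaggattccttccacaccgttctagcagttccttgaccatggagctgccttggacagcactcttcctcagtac
Pcp2: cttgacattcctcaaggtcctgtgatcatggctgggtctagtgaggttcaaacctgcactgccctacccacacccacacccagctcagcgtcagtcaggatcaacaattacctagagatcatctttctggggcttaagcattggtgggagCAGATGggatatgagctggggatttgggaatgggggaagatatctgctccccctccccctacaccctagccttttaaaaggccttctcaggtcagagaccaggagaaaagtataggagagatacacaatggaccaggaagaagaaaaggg
Hcrt: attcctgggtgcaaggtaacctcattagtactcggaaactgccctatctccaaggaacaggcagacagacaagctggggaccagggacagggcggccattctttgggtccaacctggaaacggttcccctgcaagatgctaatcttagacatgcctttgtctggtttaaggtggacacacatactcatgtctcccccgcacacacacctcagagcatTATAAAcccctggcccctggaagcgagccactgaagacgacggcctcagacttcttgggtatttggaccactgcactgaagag
The E-box letters stand in the Prox1 and Pcp2 windows and the TATA letters in the Prox1 and Hcrt windows, so neither separates the hippocampal from the brain genes. Over all 32851 promoter windows of the table, 17.2% hold the E-box letters and 13.6% the TATA letters. Among the lists described below, the E-box letters were in 1 of 7 windows of the dentate granule cell list, 1 of 5 of the cerebellar list and 3 of 8 of the hypothalamic list. The TATA letters were in 2, 0 and 3 of the same windows.

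Genes of dentate granule cells and CA pyramidal cells were higher in the hippocampus. Of 7 dentate genes, 5 were higher in the hippocampus and 1 in the brain, with a median difference of 2.46, where of all genes with a symbol 6.32% were higher in the hippocampus and 8.53% in the brain. Of 11 CA genes, 8 were higher in the hippocampus and none in the brain, with a median of 1.24, while the median over all features was -0.001. These lists are markers from the field, so the counts check the tissue labels as much as they describe the tissues.

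Lct, the gene for lactase, a known marker of granule cells in mouse brain, led the dentate list. Its log2 intensity was 12.50, 12.36, 12.52, 13.12 and 12.75 in the hippocampi of mice 0, 6, 7, 8 and 9 and 7.58, 7.20, 8.22, 7.67 and 7.49 in their brains, an order of mice kept in all series below. No hippocampus came near any brain, and the difference was 5.02 ± 0.19 (32.4-fold, adjusted p = 0.000493). C1ql2, a C1q-like protein that granule cells secrete at mossy fibre synapses, was 10.80, 10.42, 10.68, 10.17 and 10.19 in the hippocampi and 6.80, 5.91, 5.97, 6.50 and 6.24 in the brains, a 18-fold difference (4.17 ± 0.18, adjusted p = 0.000632). Dsp, the desmosomal protein desmoplakin, was 9.21, 10.43, 10.75, 10.60 and 10.81 against 5.35, 6.50, 6.46, 4.81 and 5.82, with mouse 0 the lowest hippocampus (23.8-fold, adjusted p = 0.00192). In 4 of the 5 brains Dsp was well above background. Prox1, the transcription factor that sets granule cell identity, was 9.24, 9.30, 9.02, 9.13 and 8.95 against 6.68, 6.87, 6.42, 6.51 and 6.87 (5.5-fold, adjusted p = 0.000726). Its groups did not overlap, and its difference of 2.46 ± 0.12 was smaller than those of the genes above. Trpc6, a cation channel of granule cells, was 9.13 to 11.21 in the hippocampi and 8.58 to 9.18 in the brains, so the groups overlapped (1.35 ± 0.29, adjusted p = 0.0396), and the call was lost when mouse 6, 7, 8 or 9 was left out (adjusted p up to 0.13). Plk5, a kinase of differentiated neurons, was lower in the hippocampus (-0.67 ± 0.11, adjusted p = 0.0171), a call lost without mouse 6, 8 or 9 (adjusted p up to 0.0793). Tdo2, a tryptophan-degrading enzyme of granule cells, was not called (-0.26 ± 0.24, adjusted p = 0.515).

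Fibcd1, an acetyl-binding receptor that marks dorsal CA1, had the largest difference of the CA list. It was 10.53, 10.50, 10.32, 10.56 and 10.48 in the hippocampi and 6.30, 5.41, 6.04, 5.80 and 5.99 in the brains, a difference of 4.57 ± 0.16 (23.7-fold, adjusted p = 0.000418). Spink8, a serine protease inhibitor of CA1 pyramidal cells, was 13.22, 13.11, 12.22, 14.18 and 13.38 against 8.72, 9.70, 9.16, 9.12 and 9.26 (16.4-fold, adjusted p = 0.00245), with the lowest value in mouse 7. The remaining calls were smaller. Grik4, the kainate receptor subunit of CA3 mossy fibre synapses, differed by 1.73 ± 0.18, and Rgs14, a brake on plasticity in CA2, by 1.51 ± 0.11. Nectin3, an adhesion protein of pyramidal cells, differed by 1.31 ± 0.14, Bok, a Bcl-2 family member high in CA3, by 1.24 ± 0.13, Pou3f1, a POU factor of CA1, by 1.17 ± 0.15, and Amigo2, an adhesion protein of CA2 and CA3, by 0.99 ± 0.12. In these 6 genes every hippocampus was above every brain. Wfs1, a CA1 marker that resides in the endoplasmic reticulum, was 11.34 in the hippocampus of mouse 0, where its spot lies in the low patch, and 13.05 to 14.17 in the other hippocampi, against 13.59 to 13.76 in the brains (-0.69 ± 0.39, adjusted p = 0.31; -0.28 without mouse 0). Iyd was above background on no array and Map3k15 was not called.

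Other genes outside the lists were also higher in the hippocampus. Slc9a4, a sodium-hydrogen exchanger, was 9.24, 8.73, 9.02, 9.67 and 9.19 in the hippocampi and well above background in none of the brains, which makes it at least 29.3-fold higher in the hippocampus (adjusted p = 0.00159). C4bp, a binding protein of complement C4, was well above background in 5 hippocampi and no brain and at least 6.46-fold higher (adjusted p = 0.00254). Syna, a placental syncytin, and Olfr550, an odorant receptor gene, were likewise measured in 5 hippocampi and no brain, at least 4.88-fold and 4.73-fold higher. Krt2, a keratin, was 9.34, 8.74, 9.06, 8.71 and 8.63 in the hippocampi and well above background in 2 of the 5 brains (adjusted p = 0.0012), and its fitted 16.9-fold includes the other 3 brains at background readings. Slc26a4, the anion exchanger pendrin, was 12.71, 12.42, 12.38, 13.21 and 12.29 against 8.19, 9.03, 9.10, 8.81 and 8.59 (14.5-fold, adjusted p = 0.00135). Avpr1b, the vasopressin receptor of CA2 that takes part in social memory, was 5.99 to 7.66 in the hippocampi and measured in 1 of 5 brains, that of mouse 8 at 5.48 (3.38 ± 0.44, adjusted p = 0.00959). Fcgbp, an IgG-binding mucus protein, was also measured in 1 of 5 brains (fitted difference 3.66 ± 0.37), Cldn22, a claudin of tight junctions, differed by 3.18 ± 0.24, and Olfml2b, an extracellular matrix protein, by 3.07 ± 0.08, the last with hippocampi at 9.75 to 10.44 and brains at 6.70 to 7.24.

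Of 10 transcription factors of the dorsal forebrain and steroid receptors, 5 were higher in the hippocampus, 1 was higher in the brain and 4 were not called, with a median of 0.90. Nr3c2, the mineralocorticoid receptor, which the hippocampus expresses at high level, was 8.90, 8.89, 8.71, 9.09 and 9.24 in the hippocampi and 6.46, 5.60, 6.32, 5.73 and 6.62 in the brains. The difference was 2.82 ± 0.19 (7.07-fold, adjusted p = 0.00188), with no overlap. Neurod6, a bHLH factor of forebrain excitatory neurons, was 12.91, 12.55, 12.37, 12.80 and 12.74 against 10.08, 10.01, 9.96, 9.90 and 10.09 (6.34-fold, adjusted p = 0.000586). Its brains lay within 9.90 to 10.09. Zbtb20, a zinc finger factor needed for hippocampal identity, differed by 2.16 ± 0.19 and Neurod2, a relative of Neurod6, by 1.34 ± 0.14. Lhx2, a LIM factor of the cortical primordium, differed by 0.80 ± 0.17 (adjusted p = 0.0389), a call lost without mouse 6, 7, 8 or 9 (adjusted p up to 0.122). Meis2, a homeobox factor of striatum and lower brain, was lower in the hippocampus (-1.23 ± 0.14, adjusted p = 0.00712). Emx2, a factor of hippocampal growth, differed by 1.0 ± 0.29 and was not called (adjusted p = 0.0848), and Emx1, Tbr1 and Nr3c1 were not called.

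**Figure D2:**
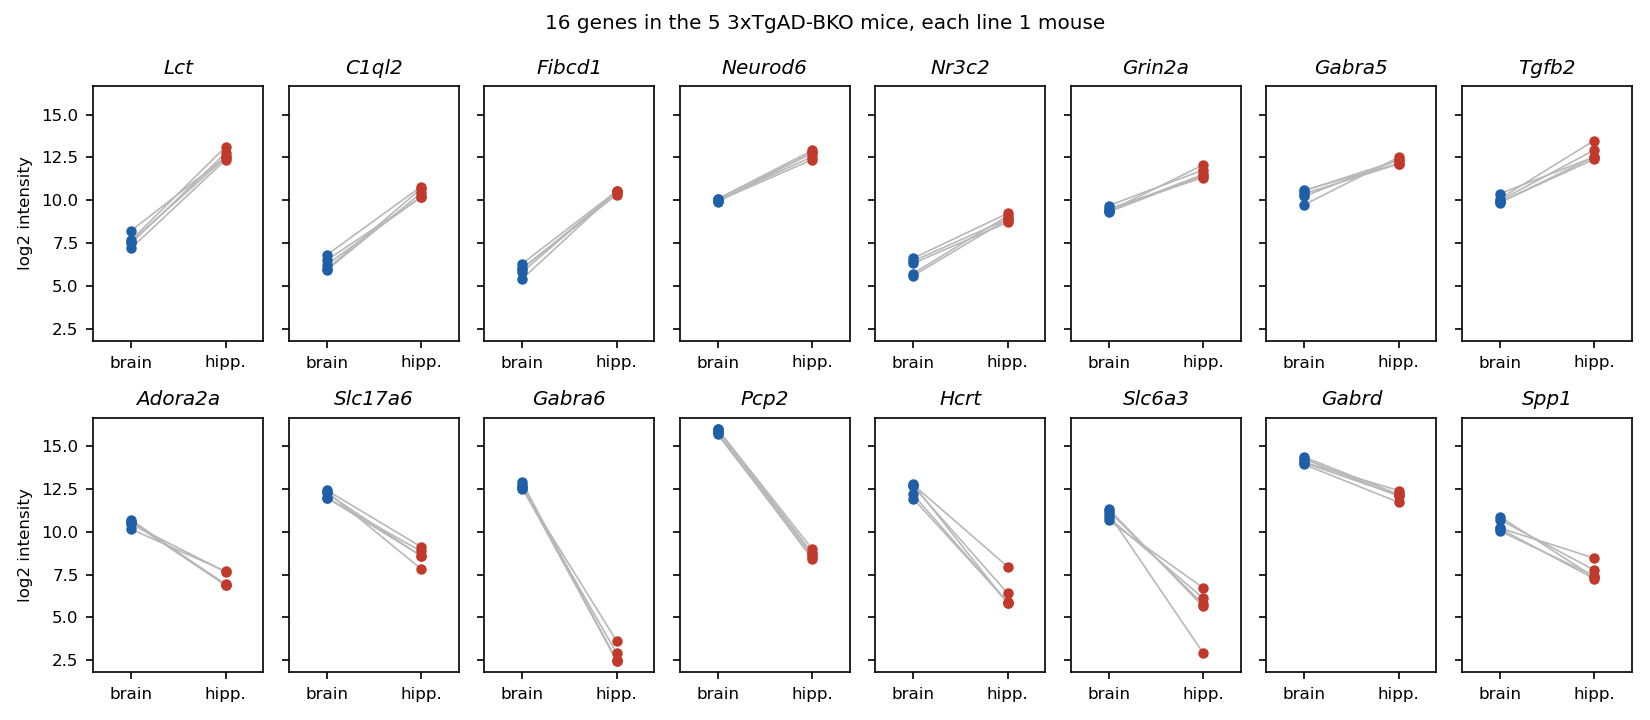
Log2 intensity (vertical axis) of 16 genes in the brain (blue, left) and hippocampus (red, right) of each 3xTgAD-BKO mouse, each grey line joining the samples of 1 mouse. In the upper row every hippocampus lies above every brain, and in the lower row every hippocampus lies below every brain. The single low point of Slc6a3 is the hippocampus of mouse 8.

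Genes of cortical layers divided. Of 9, 4 were higher in the brain, 2 were higher in the hippocampus and 3 were not called, with a median of -0.80. Foxp2, the forkhead factor of deep layers, striatum and Purkinje cells, was 2.28 to 4.72 in the hippocampi, well above background in 1 of them, and 7.58 to 8.30 in the brains (-4.47 ± 0.43, adjusted p = 0.00427). Rspo1, a Wnt agonist, differed by -2.61 ± 0.20, Lamp5, a membrane protein of upper layers, by -2.13 ± 0.10, and Cux2, an upper-layer homeobox factor, by -2.14 ± 0.34. The call of Cux2 was lost without mouse 6, 7 or 8 (adjusted p up to 0.0702). Fezf2, known for subcortical projection neurons of the cortex, went the other way: it was 10.46, 10.90, 10.69, 10.78 and 10.81 in the hippocampi and 9.43, 9.29, 8.91, 9.19 and 9.03 in the brains (1.56 ± 0.14, adjusted p = 0.00354). Nr4a2, an orphan nuclear receptor, was also higher in the hippocampus (0.63 ± 0.13, adjusted p = 0.0364), a call lost without mouse 6, 7, 8 or 9 (adjusted p up to 0.117).

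Genes of the striatum and thalamus were lower in the hippocampus wherever they were called. Of 11 genes of medium spiny neurons, 9 were higher in the brain and none in the hippocampus, with a median of -2.37. Adora2a, the adenosine receptor of the indirect pathway, was 7.66, 6.94, 6.90, 7.69 and 6.88 in the hippocampi and 10.45, 10.58, 10.70, 10.15 and 10.58 in the brains (9.7-fold, adjusted p = 0.00218). The dopamine receptors Drd1 and Drd2 differed by -2.37 ± 0.26 and -2.39 ± 0.26, and Drd2 was well above background in 2 of the 5 hippocampi. The neuropeptide genes Penk, for enkephalin, and Tac1, for substance P, differed by -2.62 ± 0.27 and -2.70 ± 0.25. In Penk the hippocampus of mouse 0 was the highest at 14.38, and in Tac1, where its spot lies in the patch, it was the lowest at 10.15. Rgs9, a brake on dopamine receptor signalling, differed by -2.74 ± 0.28 and Ppp1r1b, for DARPP-32, by -2.17 ± 0.39, the latter a call lost without mouse 0, 6, 8 or 9 (adjusted p up to 0.0915). Adcy5, the adenylyl cyclase of striatum, was 8.95 in the hippocampus of mouse 0, within the patch, and 12.26 to 12.63 in the others (-1.11 ± 0.54, adjusted p = 0.245; without mouse 0, -0.48 and 0.0427). Of 8 thalamic genes, 4 were higher in the brain and none in the hippocampus, with a median of -1.28. Slc17a6, the vesicular glutamate transporter of thalamic and brainstem neurons, was 8.58, 8.60, 8.85, 7.83 and 9.12 against 12.25, 11.99, 11.99, 12.34 and 12.43 (12.2-fold, adjusted p = 0.00143). Zic1, a zinc finger factor of thalamus and cerebellum, differed by -2.91 ± 0.38, Ramp3, a partner of calcitonin-family receptors, by -1.99 ± 0.19, and Prkcd, a protein kinase C, by -1.33 ± 0.28, the last a call lost without mouse 0, 6, 8 or 9 (adjusted p up to 0.121).

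Genes of the cerebellum were far lower in the hippocampus. Of 10 genes of granule and Purkinje cells, 9 were higher in the brain, with a median of -5.53 and a range of -5.98 to -5.31 over the medians of single mice. Gabra6, the GABA receptor subunit of cerebellar granule cells, was 12.52, 12.60, 12.90, 12.57 and 12.75 in the brains and well above background in none of the hippocampi, where it read 3.63, 2.50, 2.48, 2.92 and 2.47. It was at least 364-fold higher in the brain (adjusted p = 0.000188). Pcp2, a G-protein modulator of Purkinje cells, was measured in every sample, at 8.68, 8.75, 9.00, 8.51 and 8.42 in the hippocampi and 15.82, 15.99, 15.99, 15.69 and 15.82 in the brains, 146-fold apart (-7.19 ± 0.10, adjusted p = 4.78e-05). Its spot in the hippocampus of mouse 0 lies in the patch, though the value there was among those of the other hippocampi. Cbln3, a synaptic organiser of granule cells, and Ppp1r17, a phosphatase inhibitor of Purkinje cells, were measured in no hippocampus and were at least 54.8-fold and 116-fold higher in the brain. Crtam, a cell adhesion protein outside the list, had brains at 12.34 to 13.12 and no hippocampus well above background, at least 311-fold higher in the brain. Among those measured in both tissues, Car8, a carbonic anhydrase relative of Purkinje cells, differed by -5.84 ± 0.12, and Cbln1, the cerebellin of parallel fibre synapses, by -5.22 ± 0.25. En2, a homeobox factor of the cerebellum, differed by -4.82 ± 0.19, Fat2, an atypical cadherin of granule cells, by -4.48 ± 0.17, and Slc1a6, the glutamate transporter of Purkinje cells, by -2.01 ± 0.17. Itpr1, the calcium release channel of Purkinje cells, was 10.11 in the hippocampus of mouse 0, inside the patch, and 14.42 to 15.23 in the others (-1.97 ± 0.76, adjusted p = 0.157; without mouse 0, -1.10 and 0.0449).

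Several further genes of the hindbrain side were read in few or no hippocampi. Aqp6, an intracellular aquaporin, and Tfap2b, a factor of cerebellar inhibitory neurons, were each well above background in 5 brains and 1 hippocampus, with fitted differences of -7.97 ± 0.53 and -7.22 ± 0.52 that include the other 4 hippocampi at background readings. Dao, which degrades D-serine in hindbrain astrocytes, was well above background in 4 hippocampi and 5 brains (-7.50 ± 0.31, adjusted p = 0.000586). Hes3, a Hes repressor of the midbrain-hindbrain border, was measured in no hippocampus and was at least 44.3-fold higher in the brain. Glra1, the glycine receptor subunit of brainstem and spinal cord, was also measured in no hippocampus and was at least 15.8-fold higher in the brain. In the list of 5 Hox genes, 4 were higher in the brain, with a median of -2.24, but 1 without mouse 0, 7, 8 or 9. Only 1 of the 5 was well above background on all arrays of a tissue. Gathered by symbol, 8 Hox genes were, and 7 of these were higher in the brain, with a median of -4.55. Of all such genes 10.7% were higher in the brain. Hoxb5 was 9.17, 5.65, 9.80, 9.83 and 9.91 in the brains and in no hippocampus, at least 26.2-fold higher. The brain of mouse 6 was the lowest, and without this mouse the bound was 46.7-fold. Hoxa5 was 6.70 to 8.09 in 4 brains and 2.12, at the level of the hippocampi, in that of mouse 6 (adjusted p = 0.0397, a call lost without mouse 0, 7, 8 or 9 and up to 0.128). In Hoxc4, mouse 6 had both the lowest brain (6.66 against 8.64 to 9.53) and the highest hippocampus (6.13 against 2.12 to 3.13), and its call was lost without mouse 0, 7, 8 or 9 (adjusted p up to 0.105). Irx2, a homeobox factor of hindbrain, was at least 40.5-fold higher in the brain, and Irx5 at least 3.98-fold. Lhx5, a factor of diencephalon and interneurons of the cerebellum, was at least 48.8-fold higher in the brain, and Lhx8, a factor of forebrain cholinergic neurons, differed by -5.00 ± 0.53 (-5.60 without mouse 6). Isl1, a factor of motor and striatal neurons, differed by -3.51 ± 0.63, a call lost without mouse 7, 8 or 9 (adjusted p up to 0.0841).

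Peptide genes of the hypothalamus were lower in the hippocampus where they were called. Of 9, 5 were higher in the brain and none in the hippocampus, with a median of -3.70. Hcrt, for the wake-promoting orexins, was 7.96, 5.91, 6.42, 5.86 and 5.83 in the hippocampi and 12.75, 11.94, 12.67, 12.18 and 12.77 in the brains, 67-fold apart (-6.07 ± 0.31, adjusted p = 0.000852), with mouse 0 the highest hippocampus. Pmch, for melanin-concentrating hormone, was 12.43 to 12.82 in the brains and well above background in 4 of the 5 hippocampi (-6.66 ± 0.39). Oxt and Avp, for oxytocin and vasopressin, differed by -5.69 ± 0.37 and -5.39 ± 0.42, and the highest Oxt values were those of the brains of mice 8 and 9 (13.91 and 13.47). Ghrh, for growth hormone releasing hormone, differed by -1.64 ± 0.27, a call lost without mouse 6 or 8 (adjusted p up to 0.0707). Trh, for thyrotropin releasing hormone, was 5.26 to 7.11 in 4 hippocampi and 11.36 in that of mouse 7, above all 5 brains (10.10 to 11.32). It was not called with all mice (-3.70 ± 1.06, adjusted p = 0.0805) and was called without mouse 7 (-4.92, adjusted p = 0.00831). Agrp, Pomc and Gal were not called.

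Genes that make or carry monoamines and acetylcholine were higher in the brain in 11 of 12 cases, with a median of -3.28, and none was higher in the hippocampus. Slc6a3, the dopamine transporter, was 6.73, 5.76, 5.64, 2.93 and 6.13 in the hippocampi, well above background in 4 of them, and 10.67, 11.22, 11.33, 11.06 and 10.83 in the brains (-5.58 ± 0.60, adjusted p = 0.00565; -4.95 without mouse 8). Slc6a4 and Slc6a2, the serotonin and noradrenaline transporters, were measured in no hippocampus and were at least 13.2-fold and 5.03-fold higher in the brain. Tph2, which makes serotonin in raphe neurons, was measured in 1 hippocampus and in every brain (fitted difference -3.94 ± 0.35). Slc5a7, the choline transporter, was 5.57, 5.65, 4.63, 4.78 and 5.84 against 9.61, 9.53, 10.45, 10.16 and 10.05 (25.4-fold, adjusted p = 0.00209). Slc18a3, which loads acetylcholine into vesicles, differed by -4.07 ± 0.26 and Chat, which makes it, by -1.60 ± 0.14. The enzymes of catecholamine synthesis, Th, Dbh and Ddc, differed by -2.50 ± 0.12, -2.62 ± 0.16 and -1.27 ± 0.14, and Slc18a2, the vesicular monoamine transporter, by -1.97 ± 0.15. Fev, the raphe factor, was not called.

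**Figure D3:**
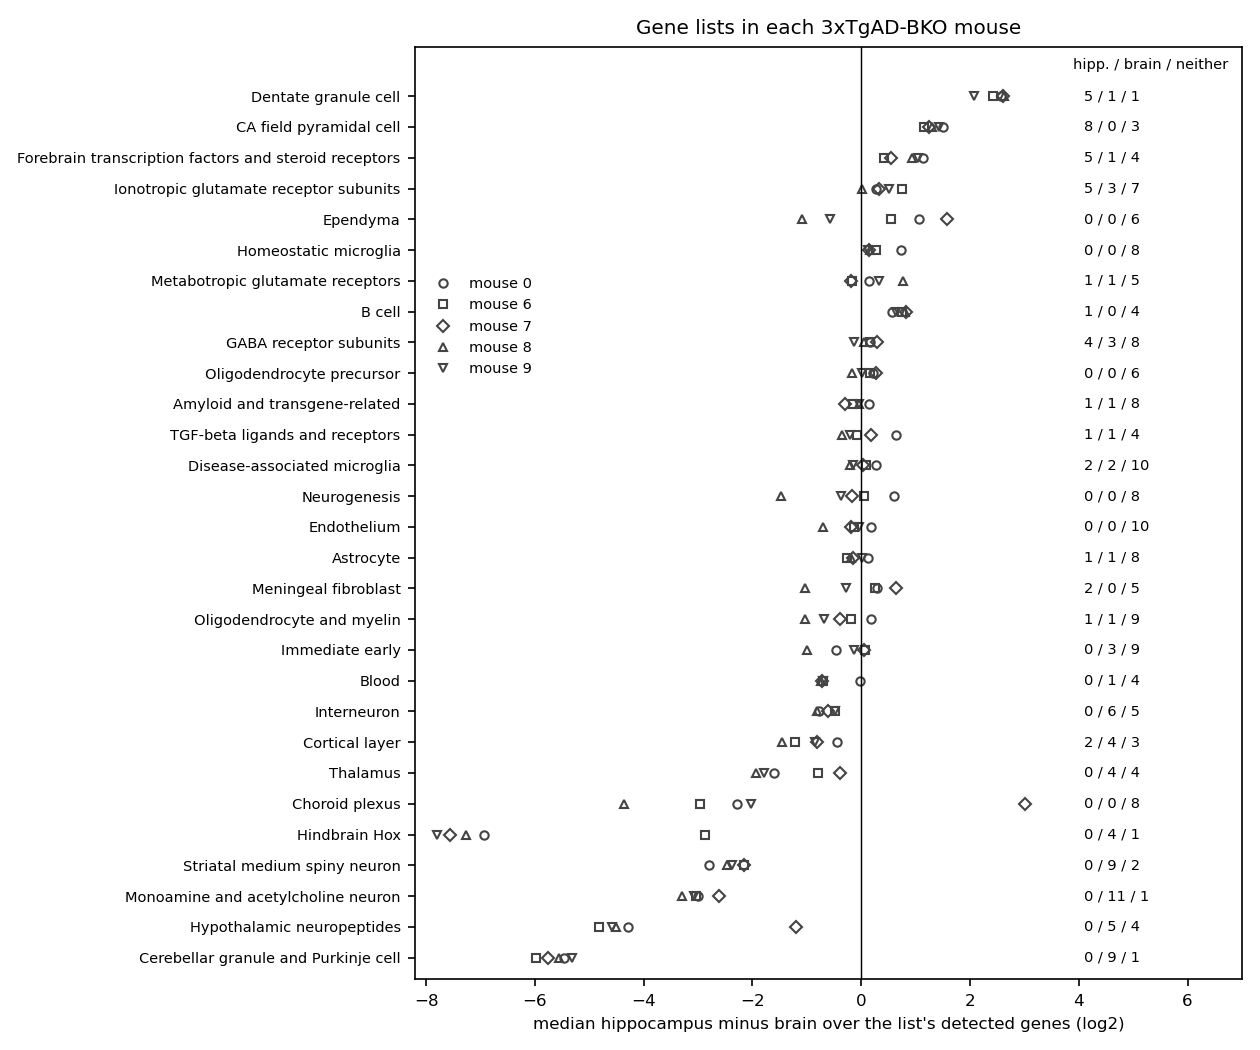
Median hippocampus minus brain difference in log2 intensity (horizontal axis) over the members of each gene list well above background on all arrays of a tissue, with 1 symbol for each 3xTgAD-BKO mouse. The numbers at the right count all members of a list with a probe that were higher in the hippocampus, higher in the brain or neither. The 5 symbols lie close together in the dentate, CA, striatal and cerebellar lists, and mouse 7 stands apart in the choroid plexus and hypothalamic lists and mouse 6 in the Hox list, of which only Hoxb5 is detected.

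In the choroid plexus list mouse 7 stood apart from the other 4 mice. None of its 8 genes was called and the median was -1.97, yet the medians of single mice ran from -4.37 to 3.02. Ttr, the thyroxine carrier that choroid plexus makes in bulk, was 11.92, 11.20, 18.19, 9.91 and 13.07 in the hippocampi and 17.37, 17.03, 15.83, 16.90 and 16.18 in the brains. The hippocampus of mouse 7, at 18.19, was above every brain and the other 4 were below every brain. Otx2, a homeobox factor of choroid plexus, was 12.10 in that hippocampus, 5.79 to 8.98 in the other 4 and 10.66 to 11.26 in the brains. Without mouse 7, 6 of the 8 genes were higher in the brain, with a median of -3.18 (Ttr -5.34, adjusted p = 0.0227). Whether the high Trh value of this hippocampus goes with its choroid plexus signal was not tested. None of 6 ependymal genes was called, with a median of 0.35 and single-mouse medians of -1.09 to 1.58.

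**Figure D4:**
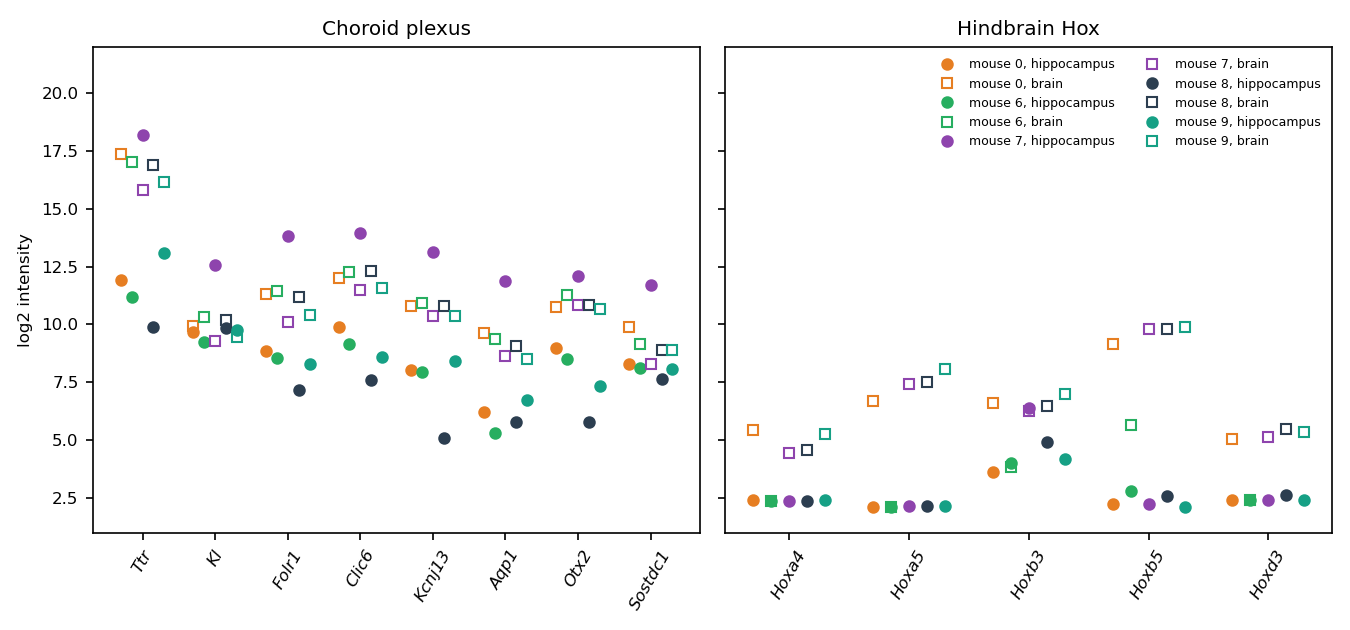
Log2 intensity (vertical axis) of the choroid plexus list (left panel) and the hindbrain Hox list (right panel) in each 3xTgAD-BKO mouse, filled circles for hippocampus and open squares for brain, 1 colour for each mouse. The hippocampus of mouse 7 is the highest sample in every choroid plexus gene. The brain of mouse 6 lies with the hippocampi for Hoxa4, Hoxa5, Hoxb3 and Hoxd3 and below the other brains for Hoxb5.

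Inhibitory neuron genes were lower in the hippocampus where they were called. Of 11, 6 were higher in the brain and 5 were not called, with a median of -0.75. Pvalb, the calcium buffer of fast-spiking interneurons and of Purkinje cells, was 12, 12.26, 12.20, 12.32 and 12.47 in the hippocampi and 15.14, 14.76, 14.96, 15.00 and 15.17 in the brains (6.76-fold, adjusted p = 0.00062). Slc32a1, which loads GABA into vesicles, differed by -1.10 ± 0.14 and Calb2, for calretinin, by -1.38 ± 0.16. Gad1 and Gad2, which make GABA, differed by -0.88 ± 0.16 and -0.90 ± 0.15 and Vip by -0.69 ± 0.10, and these 3 calls were lost without at least 1 mouse (adjusted p up to 0.0857, 0.0815 and 0.066). Sst, for somatostatin, was 14.02 to 15.13 in the hippocampi and 14.38 to 14.96 in the brains (0.01 ± 0.21, adjusted p = 0.983).

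Receptors for glutamate divided by subunit. Of 15 ionotropic subunits, 5 were higher in the hippocampus, 3 in the brain and 7 were not called. Grin2a, an NMDA receptor subunit, was 11.51, 11.43, 11.33, 12.06 and 11.77 in the hippocampi and 9.40, 9.32, 9.50, 9.35 and 9.68 in the brains, 4.49-fold apart (2.17 ± 0.15, adjusted p = 0.00178). Grin2b, the NMDA subunit of forebrain synapses, was 11.63, 11.88, 11.96, 11.58 and 11.71 against 10.41, 9.89, 9.42, 9.56 and 9.80 (3.82-fold, adjusted p = 0.00487). Neither overlapped. Gria1, the AMPA receptor subunit tied to plasticity, differed by 1.71 ± 0.13, and Grik4 was given above. Grik2, a kainate subunit, differed by 0.62 ± 0.13 with overlapping groups, a call lost without mouse 6, 7, 8 or 9 (adjusted p up to 0.128). On the brain side, Gria4, the AMPA subunit of fast interneurons and hindbrain, was 11.07, 10.74, 10.62, 10.98 and 10.76 against 12.18, 12.60, 12.86, 12.43 and 12.35 (3.13-fold, adjusted p = 0.00588). Grin2c, the NMDA subunit of cerebellum and astrocytes, differed by -0.75 ± 0.12 and Grik3, a kainate subunit, by -0.62 ± 0.09, both lost without mouse 6 or 9 (adjusted p up to 0.0734 and 0.0711). Of 7 metabotropic receptors, Grm5 was higher in the hippocampus (1.18 ± 0.16, adjusted p = 0.0116, 0.0539 without mouse 9), Grm8 higher in the brain (-1.22 ± 0.09, adjusted p = 0.0021) and 5 were not called.

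Receptors for GABA divided likewise. Of 15 subunits, 4 were higher in the hippocampus, 3 in the brain and 8 were not called, with a median of 0.15. That median was 0.017 (without mouse 8) to 0.099 (without mouse 7) with 1 mouse left out, and -0.029 with quantiles within each tissue. Gabra5, the alpha subunit of extrasynaptic receptors on pyramidal cells, was 12.51, 12.12, 12.14, 12.33 and 12.36 in the hippocampi and 9.74, 10.38, 10.59, 10.56 and 10.23 in the brains, 3.98-fold apart (1.99 ± 0.20, adjusted p = 0.00466). Gabrd, the subunit that pairs with Gabra6 in cerebellar granule cells and is also known in dentate granule cells, was 11.72, 12.08, 12.18, 12.12 and 12.40 against 13.93, 14.25, 14.36, 14.03 and 14.06 (-2.03 ± 0.12, adjusted p = 0.00132). No hippocampus reached a brain for Gabrd, and none of the brains reached a hippocampus for Gabra5. Gabrb1 differed by 1.23 ± 0.13 and Gabbr2, a subunit of the metabotropic GABA-B receptor, by 1.51 ± 0.20 (adjusted p = 0.0109, 0.0513 without mouse 6). Gabra2 was higher in the hippocampus (1.34 ± 0.27) and Gabra3 higher in the brain (-0.62 ± 0.13). Both of these calls were lost without at least 3 of the mice in turn (adjusted p up to 0.101 and 0.12).

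**Figure D5:**
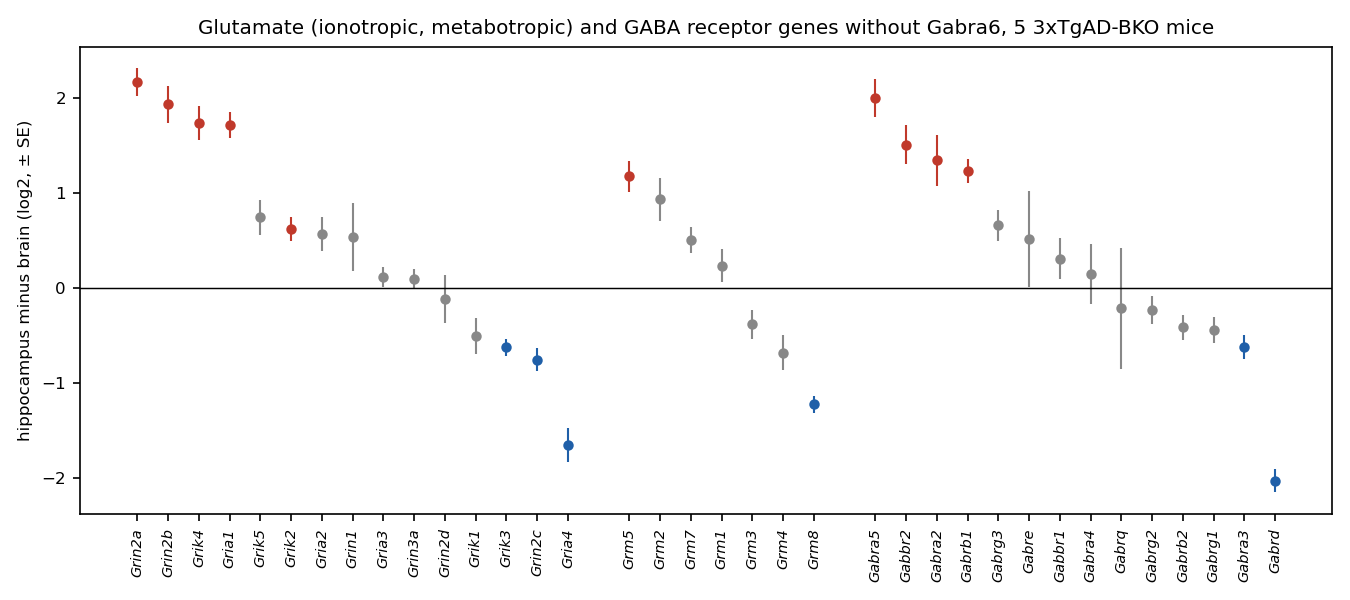
Hippocampus minus brain difference in log2 intensity (vertical axis, ± SE, 5 3xTgAD-BKO mice) of ionotropic glutamate, metabotropic glutamate and GABA receptor genes, ordered by size within each list. Red points were higher in the hippocampus and blue points higher in the brain at an adjusted p under 0.05, and grey points were not called. Gabra6, which lies far below the rest and has no hippocampal value above background, is left out.

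Families of ion channels and kinases held genes called in each direction, while serotonin receptors were called only as higher in the hippocampus. The families were gathered by symbol among genes well above background on all arrays of a tissue, which a gene can meet through 1 tissue alone. Of all such genes 8.31% were higher in the hippocampus and 10.7% in the brain. Of 23 genes with a voltage-gated calcium channel symbol, 10 were higher in the hippocampus and 5 in the brain. Cacng8, which traffics AMPA receptors, was 8.10, 8.41, 8.55, 8.81 and 8.80 in the hippocampi and 6.84, 5.72, 5.59, 5.68 and 6.37 in the brains (5.63-fold, adjusted p = 0.00716). Cacna1e, an R-type channel, differed by 1.91 ± 0.17 with 1 brain well above background, and Cacna1g, a T-type channel of thalamus and cerebellum, by -2.15 ± 0.31, a call lost without mouse 6 (adjusted p 0.0519). Of 79 potassium channel genes, 12 were higher in the hippocampus and 13 in the brain. Kcng1, a modifying subunit, led the hippocampal side (2.25 ± 0.23, adjusted p = 0.00523), and Kcnj5, an inward rectifier gated by G proteins, the brain side (-2.94 ± 0.61, lost without mouse 6, 7 or 9, adjusted p up to 0.104; -2.30 without mouse 8). Scn4b, the sodium channel subunit of resurgent current, was 10.29, 10.30, 9.99, 10.13 and 10.93 against 13.89, 14.27, 14.60, 14.35 and 14.34 (15.6-fold, adjusted p = 0.000814). Of 9 serotonin receptors, 4 were higher in the hippocampus and none in the brain. Htr4, a receptor coupled to cyclic AMP, was 10.04, 9.89, 9.77, 10.71 and 10.17 against 7.07, 7.54, 7.70, 7.69 and 7.90 (5.81-fold, adjusted p = 0.00204). Htr3a, the ion channel member, differed by 1.59 ± 0.19, Htr1a, an inhibitory receptor of pyramidal cells, by 1.34 ± 0.13, and Htr5b by 1.85 ± 0.34, the last lost without mouse 6, 7, 8 or 9 (adjusted p up to 0.0922). Chrna7, the nicotinic subunit of hippocampus, differed by 1.91 ± 0.28 (adjusted p = 0.0133, 0.0552 without mouse 9), and Chrna6, that of midbrain dopamine neurons, by -3.98 ± 0.20. Of 14 genes with a calcium/calmodulin-dependent kinase symbol, 5 were higher on each side. These counts include Camkv (0.91) and Camk2n1 (-0.44), whose products are not active kinases. Camk2a, the kinase of excitatory synapses, was 14.05, 14.08, 13.99, 14.60 and 14.20 against 12.52, 12.37, 12.25, 12.43 and 12.72 (3.3-fold), and Camk2d was lower in the hippocampus (-1.34 ± 0.15). Pde11a, a phosphodiesterase known from ventral CA1, differed by 2.55 ± 0.21, with 1 brain well above background.

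Genes of adhesion and axon guidance also took both directions. Of 59 cadherins and protocadherins, 8 were higher in the hippocampus and 10 in the brain. Pcdh20 was 13.42, 13.35, 13.26, 13.59 and 13.39 in the hippocampi and 10.14, 10.61, 10.71, 10.50 and 10.48 in the brains (7.54-fold, adjusted p = 0.000726), and Cdh7 was 6.58, 6.49, 6.33, 6.27 and 6.86 against 9.48, 9.84, 10.18, 10.14 and 9.83 (10.5-fold, adjusted p = 0.00118). Of 22 ephrins and Eph receptors, 4 were higher in the hippocampus, led by Epha6 (2.49 ± 0.10) and Epha7 (1.95 ± 0.19), and 3 in the brain, led by Epha8 (-2.97 ± 0.18). Semaphorins, plexins and neuropilins gave 6 and 4 of 30. Collagens were higher in the brain in 12 of 35 and in the hippocampus in 2. Regulators of G-protein signalling were higher in the brain in 7 of 17 and in the hippocampus in 2. Among synaptotagmins, the calcium sensors of vesicle release, Syt17 was higher in the hippocampus (1.92 ± 0.15) and Syt2, the form of hindbrain synapses, higher in the brain (-3.09 ± 0.17), with 1 hippocampus well above background.

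None of 8 homeostatic microglial genes was called, with a median of 0.31. Csf1r, the growth factor receptor of microglia, was 15.48, 14.96, 14.71, 15.32 and 14.74 in the hippocampi and 14.72, 14.72, 14.48, 14.76 and 14.47 in the brains (0.41 ± 0.12, adjusted p = 0.0827). The hippocampus was the higher sample in every mouse, although the 2 groups overlapped. Cx3cr1, the fractalkine receptor, differed by 0.43 ± 0.13 (adjusted p = 0.102). Of 14 genes of disease-associated microglia with a probe, 2 were higher in the hippocampus, 2 in the brain and 10 were not called. Over all genes with a symbol, 6.32% were higher in the hippocampus and 8.53% in the brain. Spp1, for osteopontin, was 8.46, 7.42, 7.77, 7.36 and 7.26 in the hippocampi and 10.22, 10.06, 10.71, 10.89 and 10.19 in the brains, 6.77-fold apart (-2.76 ± 0.26, adjusted p = 0.00387), and some neurons outside the hippocampus also express it. Lpl, lipoprotein lipase, which hippocampal neurons express too, was higher in the hippocampus in every mouse (1.68 ± 0.20, adjusted p = 0.00794). Gpnmb, a glycoprotein of lipid-laden macrophages, differed by 0.97 ± 0.11, and Lilrb4a, an inhibitory receptor, by -1.15 ± 0.19, the latter lost without mouse 6, 7 or 9 (adjusted p up to 0.0721). Trem2, the lipid receptor that drives this state, was not called (0.28 ± 0.12, adjusted p = 0.185).

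Of the 6 TGF-beta ligands and receptors, 1 was higher in the hippocampus and 1 in the brain, beside 6.32% and 8.53% of all genes with a symbol. Tgfb2 was 13.49, 12.40, 12.54, 12.93 and 12.53 in the hippocampi and 10.08, 9.88, 9.86, 9.97 and 10.38 in the brains, 6.7-fold apart (2.74 ± 0.19, adjusted p = 0.00201), with no overlap. Tgfb3 was lower in the hippocampus (-0.71 ± 0.14, adjusted p = 0.0331), a call lost without mouse 6, 7, 8 or 9 (adjusted p up to 0.101). Tgfb1, the ligand most studied in immune cells, was not called (-0.14 ± 0.25, adjusted p = 0.754). Among genes linked to amyloid, Mme, for the amyloid-degrading protease neprilysin, was lower in the hippocampus (-1.88 ± 0.26, adjusted p = 0.0119, 0.0547 without mouse 6) and was well above background in 4 of the 5. App was 16.17 to 16.60 in the hippocampi and 16.35 to 16.89 in the brains and was not called (-0.27 ± 0.14, adjusted p = 0.279). Thy1, whose regulatory elements drive the transgenes, was higher in the hippocampus (0.64 ± 0.10, adjusted p = 0.0161), a call lost without mouse 7, 8 or 9 (adjusted p up to 0.0653). Whether the probes of App and Thy1 also read the transgenes was not tested.

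Among 5 B-cell genes with a probe, 1 was called, in mice that lack B cells. Cd79a and Ms4a1 were above background on no array. Cd79b, the partner of Cd79a in the B-cell receptor, was well above background in 5 hippocampi and 4 brains and was not called (0.19 ± 0.10, adjusted p = 0.274). Cd22, a sialic acid receptor that microglia express too, was 10.05, 10.44, 10.28, 10.08 and 10.43 in the hippocampi and 9.33, 8.93, 8.73, 8.80 and 9.33 in the brains (1.23 ± 0.15, adjusted p = 0.00826).

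Of 11 myelin genes, 1 was higher in the hippocampus, 1 in the brain (3 without mouse 0) and 9 were not called, with a median of -0.37. Over all genes with a symbol, 6.32% were higher in the hippocampus and 8.53% in the brain, so 1 of 11 on each side is near the background. Mbp differed by 0.69 ± 0.11 and Mag by -1.12 ± 0.24, and both calls were lost without at least 3 of the mice in turn (adjusted p up to 0.0742 and 0.122). None of 6 genes of oligodendrocyte precursors was called. Of 10 astrocyte genes, 1 was higher in the hippocampus, 1 in the brain and 8 were not called, with a median of -0.16. With quantiles within each tissue 4 were higher in the brain, with a median of -0.39. Slc1a2, the main glutamate transporter, was higher in the hippocampus (1.07 ± 0.13, adjusted p = 0.00864), and S100b, a calcium-binding protein, lower (-1.20 ± 0.21, lost without mouse 6, 7 or 9, adjusted p up to 0.0753). Gfap, the filament of reactive astrocytes, was 12.54 to 14.21 in the hippocampi and 12.92 to 13.56 in the brains (0.39 ± 0.22, adjusted p = 0.304). None of 8 genes of new neurons and none of 10 endothelial genes was called. Of 12 immediate early genes 3 were higher in the brain, Fos (-1.49 ± 0.25), Egr1 (-0.83 ± 0.13) and Dusp1 (-1.08 ± 0.23), and each call was lost without at least 2 mice in turn (adjusted p up to 0.0797, 0.0682 and 0.12). Of the meningeal genes, Dcn (0.96 ± 0.14, lost without mouse 6 or 9, adjusted p up to 0.0581) and Lum (1.21 ± 0.16, adjusted p 0.0515 without mouse 9) were higher in the hippocampus and 5 were not called. Of 5 blood genes with a probe, Slc4a1, the anion exchanger of red cells, was the 1 called, higher in the brain (-1.31 ± 0.25, lost without mouse 6, 7, 8 or 9, adjusted p up to 0.102). Without mouse 0, 3 blood genes were higher in the brain.

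The tissue difference was then set beside that of mice with B cells. Of the 2425 genes called at least 2-fold, 2397 had the same direction in the 5 3xTgAD mice (98.8%) and 2391 in the 3 WT females (98.6%), against 76.1% in each over all genes. A test of the difference itself, on within-mouse differences of 15 mice in a limma fit by genotype and sex, called 7 genes between 3xTgAD-BKO and 3xTgAD, 3 with a higher (0.00817%) and 4 with a lower (0.0109%) hippocampus minus brain difference in 3xTgAD-BKO. At an unadjusted p under 0.05 there were 2398. With only the mice compared in the fit none was called. The 2 genes among the 7 that were well above background were Krt28 and Fzd10. Krt28, a hair keratin, had differences of 0.88, -0.04, -0.31, 0.28 and -0.09 in the 3xTgAD-BKO mice and -2.06 to -1.53 in the 3xTgAD mice (1.89 ± 0.19, adjusted p = 0.0178). Fzd10, a Frizzled receptor for Wnt, had differences of -0.94, -1.93, -1.91, -1.98 and -1.87 against -0.38 to 0.31 (-1.72 ± 0.19, adjusted p = 0.0262). Both genes were picked by this same test, so the separation of these mice adds no support to it. All 3xTgAD mice had their hippocampus on slide 1 and their brain on slide 3, as did mice 6 and 7 of the 3xTgAD-BKO, whose differences lay outside the 3xTgAD range in both genes. Against the WT females, 20 genes were called, 6 higher (0.0163%) and 14 lower (0.0381%) in the 3xTgAD-BKO females, 3202 were under 0.05 before adjustment, and none was called with only the mice compared. Only AK046282, a transcript with no gene symbol, was well above background, with differences of -1.07 and -1.19 in the 3xTgAD-BKO females and -0.14 to 0.31 in the WT females (-1.28 ± 0.18, adjusted p = 0.042). These 3xTgAD-BKO females had their hippocampus on slide 1 and their brain on slide 3, and the WT females had theirs on slides 2 and 4, so genotype and slide pair cannot be told apart here.

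Between the 2 females and the 3 males of 3xTgAD-BKO, the tissue difference was called different for 68 genes, 9 higher (0.0245%) and 59 lower (0.161%) in the females, and 8649 were under 0.05 before adjustment. Of the 68, 28 were well above background on all 3xTgAD-BKO arrays of a tissue. The count was 0 with only the mice compared and 0 with 75th percentile scaling. Both females had their hippocampus on slide 1 and their brain on slide 3 and no male did, so sex and slide pair cannot be told apart. Ndn, an imprinted growth suppressor of neurons, had differences of 0.68 and 0.69 in the females and -0.71, -0.43 and -0.31 in males 0, 8 and 9 (1.17 ± 0.19, adjusted p = 0.0451). Enpep, the aminopeptidase that trims angiotensin, had -1.50 and -2.30 in the females and 1.02, 0.50 and -0.13 in the males (-2.36 ± 0.36, adjusted p = 0.0412). Smndc1, a splicing factor, had -1.79 and -2.28 against 0.65, -0.21 and 0.15 (-2.24 ± 0.29, adjusted p = 0.0282), and Ypel4 had 0.73 and 0.58 against -0.54, -0.24 and -0.36 (1.03 ± 0.16, adjusted p = 0.0412). In none of these 4 genes did a female lie among the males, but the genes were chosen by this same comparison, so this adds no support to it.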

How the data were processed

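RNA of the hippocampus and of the rest of the brain was hybridised to 1-colour (Cy3) Agilent mouse arrays, 1 for each mouse and tissue, and replicates are separate mice. The deposited intensity is, per the file headers, the processed signal of Feature Extraction, background-subtracted and detrended but not normalized between arrays, with probes annotated on mm9. The deposited score of each spot was found by comparison with the scanner files to be a Z score of the log10 signal within each array, and was used as an alternative. Of 62976 spots, control spots (3671) and outlier flags were left out. Spots of a probe were averaged, log2 intensities were quantile-normalized over 30 arrays, and each gene took its probe with the highest mean (28331 probes matched to a symbol, 21367 genes with one). limma 3.58.1 in R 4.3.3 fitted mouse and tissue, with Benjamini-Hochberg adjustment over 36717 features and a threshold of 0.05. For 118 features fewer than 5 pairs had values. Differences between genotypes or sexes were fitted on within-mouse differences of 15 mice, the 2 JHT females among them. A feature is "well above background" as the scanner software flags it, and where no array of a tissue is, the fold is a bound against the higher of the lowest signal well above background and the probe's own signal. Precision is limited by the number of arrays.

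The pairing comes from the labels, which give both tissues of an animal 1 number. As a check, deviations from the tissue means correlated within a mouse at -0.26 to 0.29, and the own brain was the best match in 3 of 5 mice. The named genes were the 15 with a symbol with the largest difference in each direction (past the threshold, same sign in 5 of 5 mice, well above background on all arrays of a tissue), the 5 largest in each direction of each difference test, and the members of the gene lists. Some members of the lists are not reported here and enter no list count. Families were gathered by symbol. The comparison, lists and families were chosen with earlier results of these data known. Alternatives covered scaling, background, dim features, probes, slide, the low patch, array weights, fit, threshold and each mouse left out. The scripts were checked on simulated data.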

Additional observations from a re-analysis of the deposited data

Results flagged for a closer look

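In 17 of 194 series of 5 values, the value of 1 mouse lay far from those of the other 4, where the gap to the nearest mouse over the whole range exceeded 0.71 (a share of the range that chance exceeds in about 1 of 20 groups). Mouse 0 stood apart in Adcy5 (0.896 of the range, a difference of -3.62 against -0.63 to -0.28), Itpr1 (0.775, -5.47 against -1.62 to -0.50), Tac1 (0.73, -3.78 against -2.62 to -2.19), Tgfb3 (0.855, -1.27 against -0.61 to -0.50), Fezf2 (0.753, 1.03 against 1.60 to 1.78) and Penk (0.721, -1.45 against -3.10 to -2.64). It did so also in the medians of the homeostatic microglia (0.765, 0.72 against 0.13 to 0.27) and blood lists (0.945, -0.02 against -0.74 to -0.70), and in the number of outlier spots on its hippocampal array (0.975, 432 against 112 to 120). Mouse 6 stood apart in Hoxb5 (0.825, -2.87 against -7.80 to -6.93), Hoxa5 (0.774, 0.00 against -5.95 to -4.60), Hoxc4 (0.86, -0.53 against -7.35 to -6.39), Lhx8 (0.718, -2.59 against -6.06 to -5.08) and the median of the Hox list, which holds the same values since Hoxb5 is its only detected member (0.825). Mouse 7 stood apart in Trh (0.744, 1.15 against -6.05 to -4.21) and the median of the hypothalamic list (0.853, -1.21 against -4.82 to -4.29), and mouse 9 in Ppp1r17 (0.735, -7.84 against -8.63 to -8.42).

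The hippocampus minus brain difference was called different between 3xTgAD-BKO and 3xTgAD for Krt28 (higher in 3xTgAD-BKO by 1.895 on the log2 scale) and Fzd10 (-1.723), and between 3xTgAD-BKO and WT females for AK046282 (-1.284). Between the females and males of 3xTgAD-BKO it was called different for Ndn (1.169), Ypel4 (1.035), Enpep (-2.365), Smndc1 (-2.236) and the unnamed transcripts ENSMUST00000177271 (1.884), XM_006508965 (1.436), ENSMUST00000044705 (-2.652), XR_872391 (-2.22) and a region of chromosome 6 with no gene name (-2.649). These 5 unnamed ones have no gene symbol in the tables used here.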

How the results depend on the processing

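The 4690 calls became 7146 with no replicate block (mouse not in the fit), 7126 with quantiles within each tissue, 7146 with slide as a random block and 1327 with slide as a fixed term (both also without mouse), 7804 with array weights, 12302 with all 15 mice in one fit, 7571 at a threshold of 0.1, 933 against a fold of 1.5 and 11272 by the methods' t-test unadjusted (6586 adjusted). The males alone gave 277 and the females alone 0 in limma (10367 at an unadjusted p under 0.05), and 1 mouse left out gave 1718 (without mouse 6) to 5874 (without mouse 0). The count at least 2-fold (2425) was 1192 with normexp, 1168 with slide as a fixed term, 277 in males, 0 in females, 933 against a fold of 1.5, and 1462 to 2788 with 1 mouse left out. Of the 4690 genes, 4417 were shared with the fit without the block and 1013 with the slide term. List counts moved too with quantiles within each tissue. Higher in the hippocampus and in the brain were then 1 and 4 astrocyte genes, 1 and 7 of cortical layers, 4 and 3 forebrain factors, and 0 and 2 endothelial genes. Of the 149 genes past the threshold with all mice that are described in the text, none turned direction under any setting run, and 111 stayed past it whichever mouse was left out.

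For the tissue difference between 3xTgAD-BKO and 3xTgAD, the 7 calls became 3 with 75th percentile scaling or probe means, 2 without dim genes, 33 with no replicate block, 14 at 0.1, 11 with the patch missing, 0 with only the mice compared (2065 unadjusted) and 1 to 147 with 1 mouse left out. Against WT females, 20 became 10 with 75th percentile scaling, 0 without dim genes (2402 unadjusted), 13 with normexp, 62 with no replicate block, 64 at 0.1, 0 with only the mice compared (3040 unadjusted) and 12 to 244 with 1 mouse left out. Between the sexes, 68 became 0 with 75th percentile scaling (9574 unadjusted), 2672 without dim genes, 1008 with normexp, 2107 with no replicate block, 2961 at 0.1, 0 with only the mice compared (4352 unadjusted) and 20 to 1897 with 1 mouse left out. Without mouse 6 or 7, 1 3xTgAD-BKO female is left and is assumed to vary like the other mice. The cause was not tested.

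Genes not called changed sign in some settings. App was 0.087 with 75th percentile scaling, 0.028 in the deposited scores and 0.15 with slide as a term or within the shared slide. Sst was -0.19 with quantiles within tissue, -0.53 with slide or within the shared slide, -0.33 in males, and -0.16 to 0.17 with 1 mouse left out (-0.08 without mouse 6). Tdo2 was 0.81 with slide or within the shared slide and 0.088 in females, Gfap -0.49 with slide or within the shared slide, and Tgfb1 0.50 in females and -0.38 (without mouse 7) to 0.0048 (without mouse 8) with 1 mouse left out.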
